A study of Mus musculus with 8 samples.

Results

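Cytosolic ribosomal protein genes encode the proteins of the large (Rpl) and small (Rps) subunits of the ribosome, the particle that translates mRNA. Genes were taken by their name in the array annotation: an Rpl or Rps number with its usual suffix, the stalk genes Rplp0, Rplp1 and Rplp2, and Rpsa, without ribosomal S6 kinases and pseudogenes. This gave 84 of 34797 gene names on the array, 51 of the large and 33 of the small subunit, covered by 189 probes of 60 bases. RNA came from the dissected medial prefrontal cortex (mPFC) of 8 adult male C3H/HeN mice, with 1 Agilent array per mouse. The 4 control mice (animals 6.2, 8.2, 8.4 and 8.5) had been left undisturbed with their dams as pups, and the 4 mice of the maternal separation (MS) group (animals 5.3, 7.1, 7.2 and 7.6) had been separated daily from postnatal day 2 to 14 while their dams underwent unpredictable stress. Both groups were weaned on day 21, carried no engineered allele, performed operant tests for palatable food as adults and were killed after food deprivation. The number before the point is shared by 3 controls and by 3 MS mice. What it stands for (a litter, a cage or another unit) was not stated, so p values measure the spread between these animals as if they were independent.

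Ribosomal proteins are needed in equal copy number, since each ribosome holds a single copy of nearly all of them, and their genes are transcribed at high rates in nearly all cells. Most of their mRNAs begin with a C followed by a run of pyrimidines, the 5′ terminal oligopyrimidine (TOP) motif, through which the kinase mTORC1 and the binding protein Larp1 regulate their translation, and Larp1 also their stability. In neurons, ribosomal protein mRNAs are also found in dendrites and axons. An array measures mRNA amount and does not report on translation.

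The TOP motif is a feature that the choice of genes by name did not use, and the start sites of 7 members are shown here because they carry or lack it. Each window runs 5′ to 3′ from 40 bases before to 15 bases from the annotated start on, with the longest pyrimidine run near the start in capitals, from RefSeq promoters on build GRCm38.p6.
Rps6: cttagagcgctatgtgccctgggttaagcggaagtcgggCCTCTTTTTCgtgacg
Rps21: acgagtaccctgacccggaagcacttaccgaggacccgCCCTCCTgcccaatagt
Rps10: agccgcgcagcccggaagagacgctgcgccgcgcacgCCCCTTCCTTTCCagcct
Rplp2: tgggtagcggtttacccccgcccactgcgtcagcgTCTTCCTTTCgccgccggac
Rpl35: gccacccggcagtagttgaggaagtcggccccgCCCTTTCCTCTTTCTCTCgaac
Rps19: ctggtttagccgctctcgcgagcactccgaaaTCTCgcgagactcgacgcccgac
Rpl3l: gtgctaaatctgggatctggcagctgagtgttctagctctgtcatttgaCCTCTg
The windows lie at chr4:86857353-86857407 on the minus strand (Rps6), chr2:180257339-180257393 on the plus strand (Rps21), chr17:27635230-27635284 on the minus strand (Rps10), chr7:141447611-141447665 on the plus strand (Rplp2), chr2:39005117-39005171 on the minus strand (Rpl35), chr7:24884552-24884606 on the plus strand (Rps19) and chr17:24727786-24727840 on the plus strand (Rpl3l). Rps6, Rps21, Rps10, Rplp2 and Rpl35 have a C at the annotated start followed by 4 bases that are each C or T. Rpl3l, the muscle paralog of Rpl3, and Rps19 do not, in any of their annotated starts. Of the 2 annotated starts of Rps21 the shown window has the motif and the other does not. The runs in capitals measure 10, 7, 13, 10, 18, 4 and 5 bases in the order shown.

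Promoter windows of 250 bases before and 50 after the start were found for 63 of the 84 members. A start C followed by 4 pyrimidines was present in 13 of the 63 (20.6%), against 3.01% of 27025 genes in the whole promoter table. The share was 7 of 39 in the large and 6 of 24 in the small subunit. A pyrimidine run of at least 8 bases within 10 bases of the start was found in 46.0% of members and 15.8% of all genes. The annotated start can lie a few bases from the base used in the cell, as in Rps25, where a run of 14 pyrimidines ends before it, and in Rpl7a, where a run of 21 spans it but the start base is not C, so these shares count letters at the annotated position only. The letters CCGGAAG, the core bound by ETS factors, read on both strands, occurred in the 300 bases of 26 of the 63 members (41.3%) against 9.93% of all genes. They are seen in the windows of Rps21 and Rps10. The palindrome CTCGCGAG occurred in 7 members (11.1%) against 1.04% of all genes and is seen in the window of Rps19. An occurrence of it cannot overlap one of CCGGAAG. A match is a description of the sequence and not a measured site.

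In the mPFC the ribosomal protein genes were measured clearly: 82 of 84 had a signal well above background in all 8 mice and could be tested, 49 of the large and 33 of the small subunit. Values are given for the brightest tested probe of each gene, on a log2 scale from which the 75th percentile of that array was subtracted, after removal of background, so that 0 is that percentile and 1 is a doubling. The probe signal of 77 of the 82 genes lay in the brightest 10% of the 23461 genes tested. All member probes together held 5.52% ± 0.146 (SD, n = 4) of the summed signal of an array in controls and 5.55% ± 0.247 (SD, n = 4) in MS mice. The genes outside the brightest 10% were mostly tissue-restricted or diverged paralogs. Rpl3l read -4.97, Rpl7l1 -2.30, Rps4y2 (Rps4l in RefSeq) -0.37 and Rps27l 2.45, and the fifth was Rpl5, at 3.90. Rpl10l and Rpl39l, paralogs with their main expression in testis, were not well above background on 7 of 8 arrays and were not tested. Probe signals depend on the probe as well as the transcript, so these values do not rank the genes by abundance.

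No ribosomal protein gene passed the test between MS and control mice. Of the 82 genes tested, 0 passed an adjusted p of 0.05 (limma, Benjamini-Hochberg), as did 0% of all genes, and the smallest adjusted p of limma was 0.9996. At an unadjusted p under 0.05, 0 of 82 ribosomal protein genes passed, against a background of 1.94% of all genes tested, and the smallest p in limma was 0.197, for Rps21. Groups did not overlap, with all 4 MS values above or below all 4 control values, in 0 of 82 members and in 1.37% of all genes. The mean difference was smaller than the within-group SD in 82 of 82 genes. The log2 fold change (MS minus control) ran from -0.16 for Rps4y2 to 0.26 for Rps21, and for 80 genes it stayed within a ratio of 1.1 in either direction. The 95% confidence interval lay within 0.5 log2 of 0 for 81 of 82 genes and within 0.25 for 34. The widest bound in either direction was a ratio of 1.62, for Rps21, so a doubling lay outside the interval of every member tested. Differences inside these intervals are not excluded by these data from 4 mice a group.

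**Figure D1:**
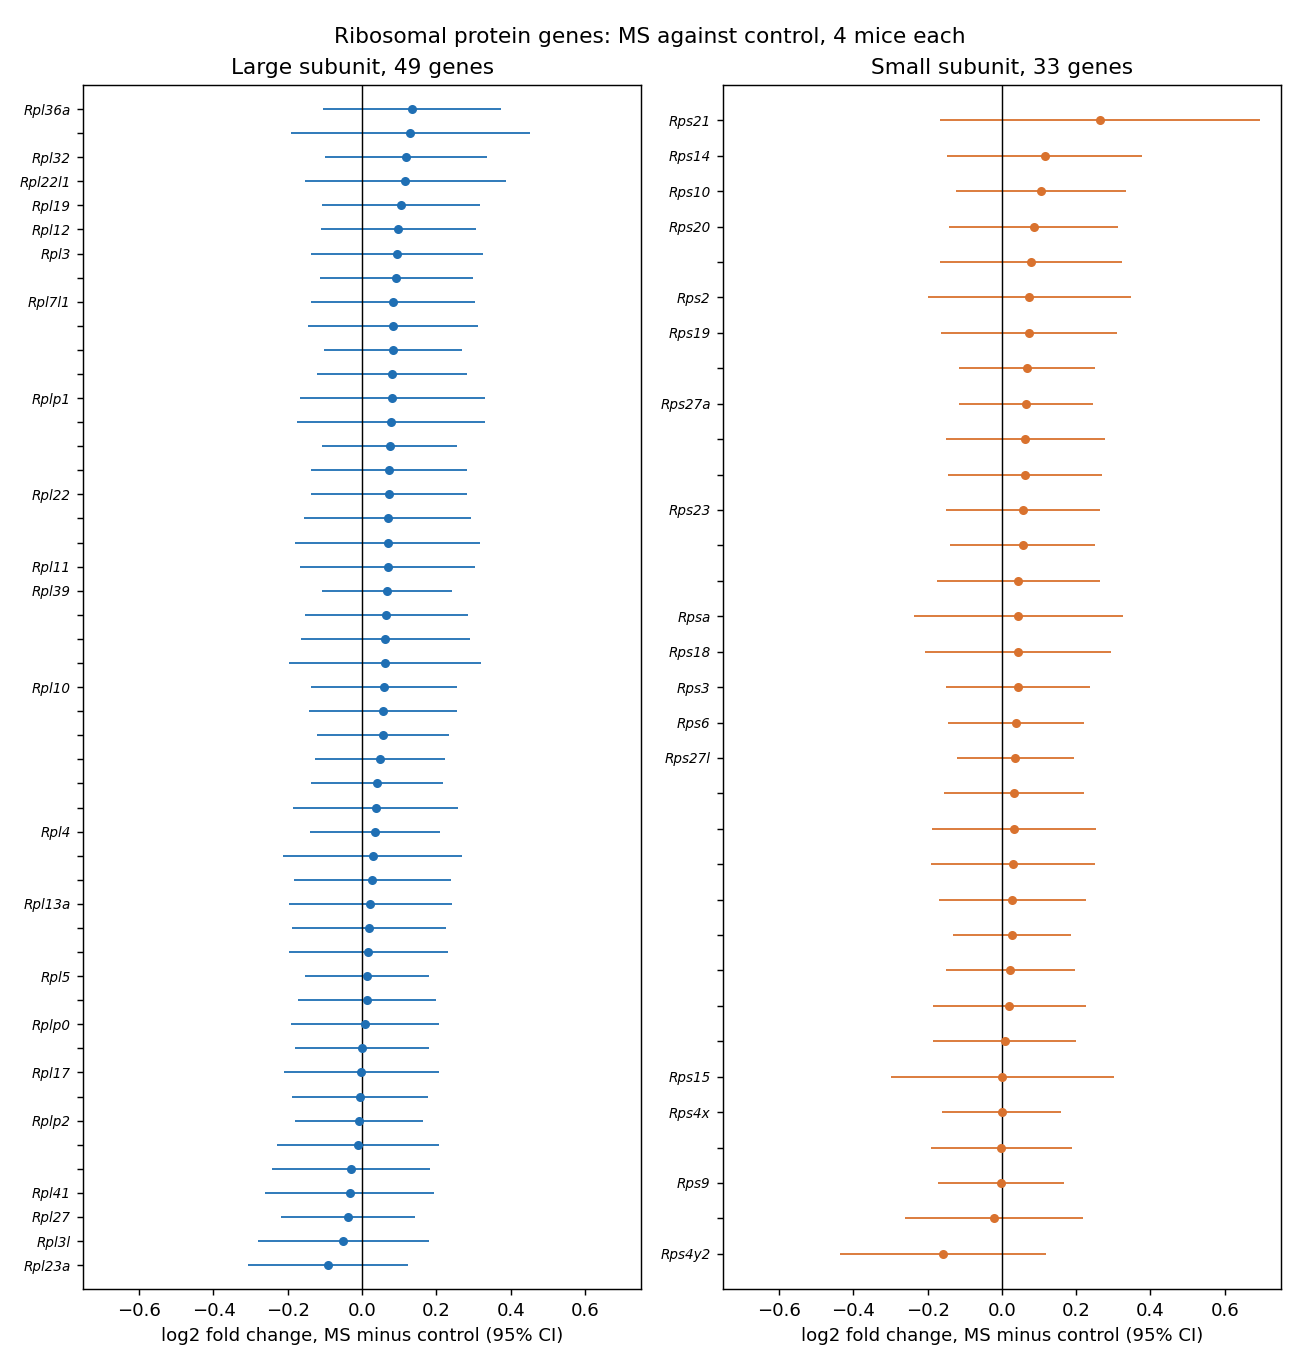
Log2 fold change (MS minus control, horizontal axis) of 49 large-subunit and 33 small-subunit genes, 1 line per gene, with names for genes described in the text and bars for the 95% confidence interval from limma over 4 control and 4 MS mice. All 82 intervals include 0, and Rps21 has the widest.

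Most members were slightly higher in mean in MS mice, and the count moved with single animals and with the scaling. The fold change was above 0 in 67 of 82 members, 39 of 49 in the large and 28 of 33 in the small subunit, with a median of 0.047 over all, 0.059 over the large and 0.043 over the small subunit. With quantile normalization in place of the 75th percentile 43 of 82 were above 0, in the log2 table that the authors normalised 45 of 81, and with the array's median 75 of 82. Over all genes tested 54.1% were above 0, with a median of 0.011. Bright probes in general had such values: in the other 2269 genes of the brightest 10%, 76.7% were above 0 and the median was 0.045. Without control 8.4, the median of the members was -0.0015 and 37 of 82 were above 0, and without MS 7.6 they were 0.017 and 52 of 82. The count rose to 78 of 82 without control 8.5 and to 77 of 82 without MS 7.2. Leaving out control 6.2, control 8.2, MS 5.3 or MS 7.1 gave 71, 61, 64 and 72 of 82. Without control 8.4, the median of those other bright genes was 0.0043.

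**Figure D2:**
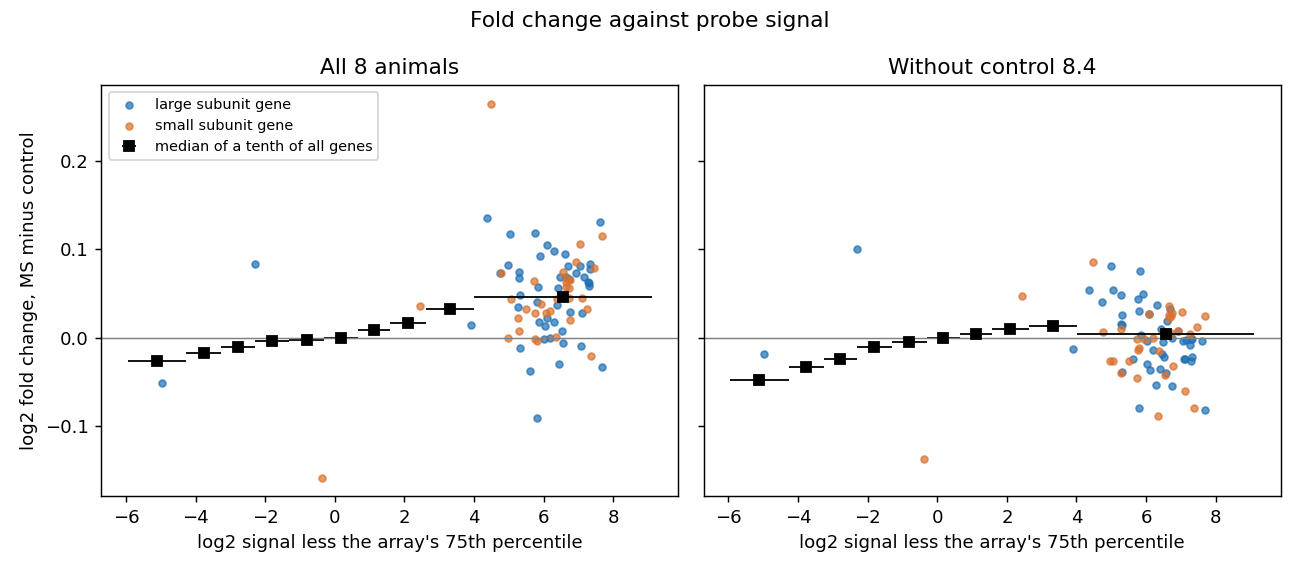
Log2 fold change (vertical axis) against the mean log2 probe signal relative to the 75th percentile (horizontal axis, mean of 8 animals). Coloured points are the 82 ribosomal protein genes, and black squares are medians over successive 10% bins of all 23461 genes by signal, with bars spanning the signals of the bin. With all 8 animals the medians run from -0.026 in the dimmest to 0.045 in the brightest 10%, where 77 members lie, and without control 8.4 the brightest 10% has a median of 0.0040.

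The members moved together from animal to animal. As the mean over the 82 genes of the log2 value minus the gene's mean over the 8 mice, control 6.2 read 0.035, control 8.2 -0.054, control 8.4 -0.16 and control 8.5 0.093. MS 5.3 read 0.034, MS 7.1 0.026, MS 7.2 -0.062 and MS 7.6 0.092. The groups overlapped widely, with a control mean of -0.023 ± 0.11 (SD, n = 4) and an MS mean of 0.023 ± 0.063 (SD, n = 4). Control 8.4 had the lowest value of the 8 mice in 56 of 82 genes, MS 7.6 had the highest in 39, and control 8.5 the highest in 24. The lowest value also fell on control 8.4 in 59.3% of the other genes of the brightest 10%. Relative to those other bright genes, the members read -0.024 in control 8.4, within the range of the other 7 mice (-0.066 in MS 7.2 to 0.072 in MS 7.6). The shift shared by all members held 52.7% of the squared deviations within groups. Taking it out lowered the within-group SD in 71 of 82 genes, from a median of 0.12 to 0.066. Rpl39, a protein of the exit tunnel, followed the shared shift closely, with a remaining SD of 0.023, and Rps21 least, with 0.24.

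Large- and small-subunit genes did not separate. The large subunit mean was 0.031, -0.054, -0.16 and 0.088 in controls 6.2, 8.2, 8.4 and 8.5, and the small subunit mean was 0.040, -0.053, -0.18 and 0.10 in the same animals. In MS 5.3, 7.1, 7.2 and 7.6 the large subunit read 0.030, 0.025, -0.055 and 0.092 and the small subunit 0.040, 0.026, -0.071 and 0.092. In each mouse both subunits lay on the same side of 0. The difference between them (large minus small) was at most 0.018 in size in any mouse, -0.0014 ± 0.014 (SD, n = 4) in controls and 0.0014 ± 0.011 (SD, n = 4) in MS mice. The group difference of 0.0028 is smaller than either SD.

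**Figure D3:**
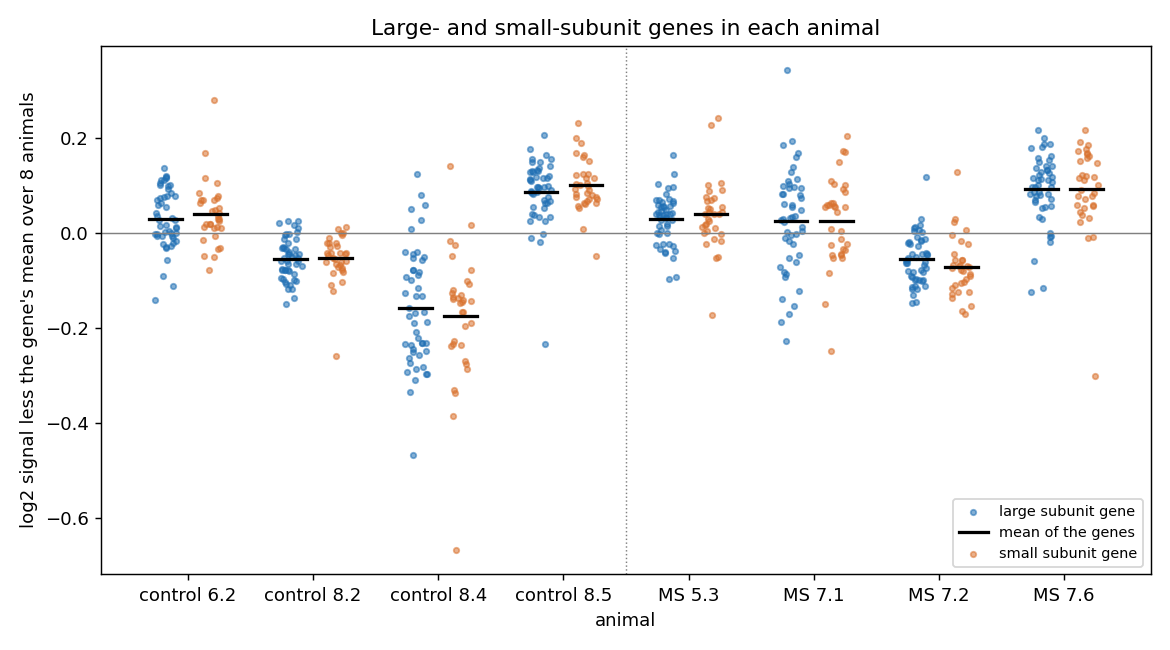
Each point is 1 ribosomal protein gene in 1 animal, as its log2 signal minus the gene's mean over the 8 animals (vertical axis), with large-subunit genes in blue, small-subunit genes in orange and a black bar for their mean. Control 8.4 is low for both subunits, at -0.16 and -0.18, and in each animal the bars of the subunits lie within 0.018 of each other.

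Markers of brain regions differed between animals, and control 8.4 stood apart. Markers of cortical excitatory neurons were above background on all 8 arrays for 10 of 10 genes. This does not check the region, since most striatal and bulb markers tested were above background too. The mean deviation of the cortical markers was -0.55 in control 8.4 and -0.046 to 0.23 in the other mice. Markers of striatal projection neurons (10 of 12 tested, 9 of them above background on all 8 arrays) read 1.34 in control 8.4 and -0.31 to -0.074 in the others. Of 9 markers of olfactory bulb neurons 8 were tested, 7 of them above background on all 8 arrays. The 8 tested read 2.34 in control 8.4, 1.28 in MS 7.6 and 0.87 in control 8.5, and -1.02 to -0.74 in the other 5. The animal with the lowest ribosomal protein mean and the pair with the highest were those in which bulb markers were high. Choroid plexus and ependyma markers (6 tested, 5 of them above background on all 8 arrays) read 0.95 in control 8.4 and -0.46 to 0.082 in the others. Oligodendrocyte and astrocyte markers were also highest in control 8.4, at 0.32 and 0.40. The part of tissue makeup in the ribosomal protein values was not tested, and in dissected tissue fewer cells of a type cannot be told apart from less RNA per cell. The 75th percentile itself, on which each array was scaled, ran from 586 in MS 7.1 to 888 in control 8.4.

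**Figure D4:**
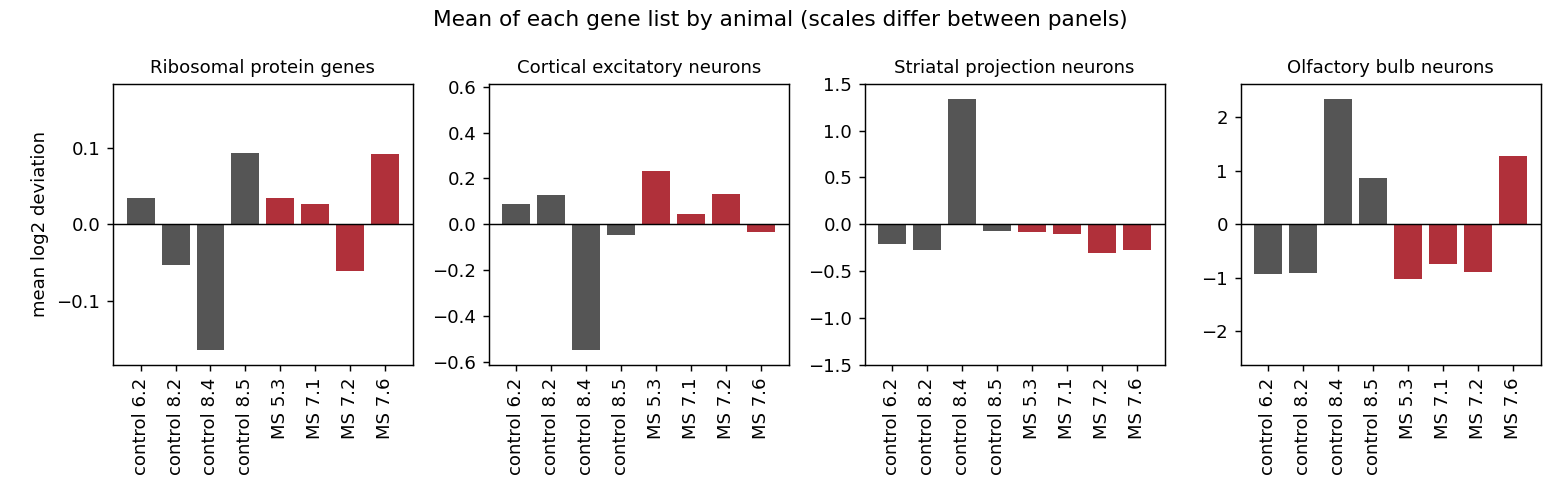
Bars give, for each animal, the mean over a gene list of the log2 value minus the gene's mean over the 8 animals, with controls in grey and MS mice in red and a different vertical scale in each panel. Control 8.4 reads -0.16 for ribosomal protein genes, -0.55 for cortical, 1.34 for striatal and 2.34 for olfactory bulb neuron markers.

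The 8 arrays sat on 1 slide in 2 rows, each with 2 animals of each group. Within the row that held controls 6.2 and 8.5 with MS 5.3 and 7.1, the median of the members was -0.032 and 64 of 82 were lower in MS mice. Within the row that held controls 8.2 and 8.4 with MS 7.2 and 7.6, the median was 0.12 and 77 of 82 were higher. The direction thus differed between the rows. The other genes of the brightest 10% had medians of 0.0014 and 0.087 in the same rows.

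Rps21, a small-subunit protein needed for late processing of the small-subunit rRNA, had the largest mean difference and the widest spread. Its level was 4.76, 4.22, 3.81 and 4.60 in controls 6.2, 8.2, 8.4 and 8.5, and 4.71, 4.63, 4.61 and 4.51 in MS 5.3, 7.1, 7.2 and 7.6. The MS mice lay inside the range of the controls. The control mean was 4.35 ± 0.42 and the MS mean 4.61 ± 0.084 (SD, n = 4 each), a log2 fold change of 0.26 ± 0.19 (SE), and it was 0.086 without control 8.4 and 0.40 without control 6.2. Its single probe lies at chr2:179993084-179993143 on build mm9. Among the small-subunit genes the next smallest p values of those higher in mean belonged to Rps10, Rps14 and Rps20, with fold changes of 0.11, 0.12 and 0.085 and SE of 0.10 to 0.12. Without control 8.4 these were 0.029, 0.024 and 0.0077. Rps14, a protein of the platform of the small subunit, read 7.79, 7.63, 7.36 and 7.75 among the controls, against 7.67, 7.89, 7.61 and 7.81 among the MS mice, in the animal order used above, and the groups overlapped.

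Rps4y2, a paralog of Rps4x, had the lowest mean fold change of all members. It read -0.31, -0.49, -0.23 and -0.14 among the controls, against -0.39, -0.20, -0.53 and -0.67 among the MS mice. The log2 fold change was -0.16 ± 0.12 (SE). It was -0.14 without control 8.4, -0.084 without MS 7.6 and -0.24 without MS 7.1. Only MS 7.2 and 7.6 lay below all controls. Rps4x itself, the X-linked gene, differed by -0.00051. Rps9, also a small-subunit protein, differed by -0.0033.

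In the large subunit, the 4 genes higher in mean with the smallest p were Rpl36a, Rpl32, Rpl19 and Rpl12. Rpl36a, which lies near the tRNA exit site, read 4.44, 4.27, 4.06 and 4.44 among the controls, against 4.35, 4.56, 4.38 and 4.46 among the MS mice. Its log2 fold change was 0.13 ± 0.11 (SE), and 0.054 without control 8.4. Rpl32 read 5.77, 5.69, 5.47 and 5.85 among the controls, against 5.77, 5.84, 5.76 and 5.89 among the MS mice, and control 8.4 was the lowest of the 8. Its fold change of 0.12 ± 0.096 (SE) was 0.044 without that animal. Rpl19 and Rpl12, the latter at the base of the stalk, differed by 0.10 and 0.098, with 0.027 and 0.037 without control 8.4.

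Rpl23a, at the mouth of the tunnel through which new proteins leave, had the lowest mean fold change of the large subunit. It read 5.83, 5.78, 5.88 and 5.88 among the controls, against 5.83, 5.57, 5.67 and 5.94 among the MS mice. Here control 8.4 was not low, and the value of -0.091 ± 0.095 (SE) was -0.080 without it, -0.031 without MS 7.1 and -0.15 without MS 7.6. MS 7.1 and 7.2 lay below the controls and MS 7.6 above them. Rpl27 and Rpl41 differed by -0.037 and -0.033. Rpl41, which encodes a peptide of very few residues, had the brightest probe of the large subunit, at 7.69.

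**Figure D5:**
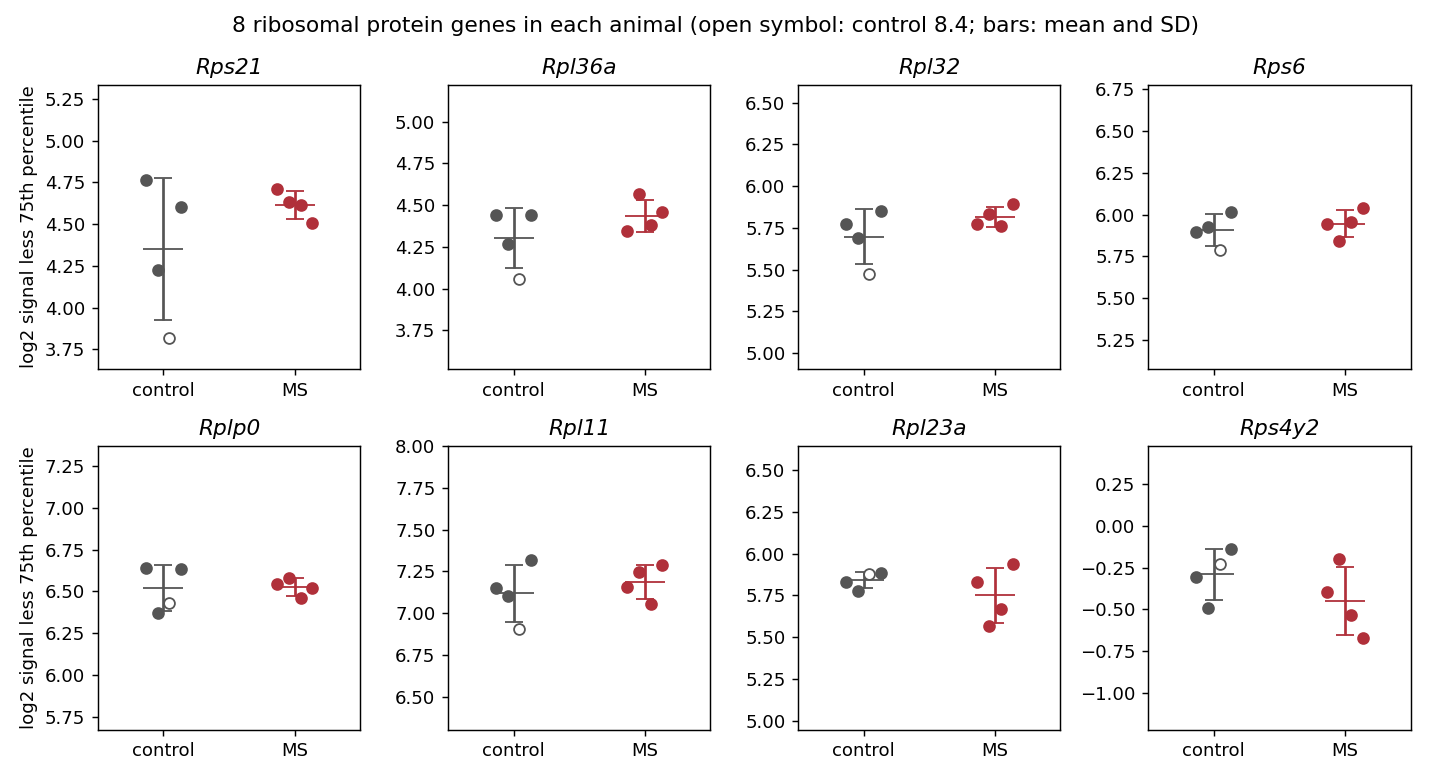
Log2 signal relative to the 75th percentile (vertical axis, the same span of 1.7 log2 in each panel) of 8 ribosomal protein genes in control (grey) and MS (red) mice. Points are animals, the open symbol is control 8.4, and bars are the mean and SD of 4 mice. In Rps21, Rpl36a, Rpl32, Rps6 and Rpl11 control 8.4 is the lowest point, and in no panel do the groups separate.

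The P stalk, built from Rplp0, Rplp1 and Rplp2, recruits the GTPases that drive elongation. Rplp0 read 6.64, 6.37, 6.43 and 6.63 among the controls, against 6.54, 6.58, 6.46 and 6.52 among the MS mice, a log2 fold change of 0.0077 ± 0.087 (SE). Rplp1 differed by 0.081 and Rplp2 by -0.0092, and without control 8.4 the 3 values were -0.022, -0.0040 and -0.024. Rpl5 and Rpl11 carry the 5S rRNA into the large subunit and, when unbound, inhibit Mdm2. Rpl11 was 7.12 ± 0.17 in controls, lowest in control 8.4 at 6.90, and 7.19 ± 0.10 in MS mice (SD, n = 4 each), with a log2 fold change of 0.069, and Rpl5 differed by 0.014. Both were below 0 without control 8.4, at -0.0029 and -0.013. Rpl4, Rpl17 and Rpl39 line the exit tunnel and differed by 0.035, -0.0020 and 0.067.

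Rps6, the substrate of S6 kinase whose phosphorylation is widely used as a marker of neuronal activity, read 5.89, 5.93, 5.79 and 6.02 among the controls, against 5.94, 5.84, 5.96 and 6.04 among the MS mice. The log2 fold change was 0.038 ± 0.081 (SE), and -0.0013 without control 8.4. An array does not show its phosphorylation. Rps27a, made as a fusion with ubiquitin, differed by 0.065, Rpsa, the laminin receptor precursor, by 0.045, and Rps19, the gene most often mutated in Diamond-Blackfan anaemia, by 0.073. Rpl3, at the peptidyl transferase centre, Rpl10, an X-linked gene whose protein joins late in assembly, and Rpl22 differed by 0.094, 0.059 and 0.073. The SE of these 6 genes ran from 0.079 to 0.12.

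By role, no group of members held a gene past the threshold. The 16 genes mutated in Diamond-Blackfan anaemia had a median log2 fold change of 0.036, with 15 above 0, and 0.0010 without control 8.4, with 8 above 0. The 4 genes on the decoding and mRNA entry side of the small subunit (Rps2, Rps3, Rps15 and Rps23) had a median of 0.050, and -0.028 without that animal. The 6 genes in common use as references of expression assays (Rplp0, Rpl13a, Rps18, Rpl19, Rpl4 and Rpl32) had fold changes of 0.0077 to 0.12. Their within-group SD ran from 0.075 for Rpl4 to 0.15 for Rps18. Of the 7 paralogs on the array, 5 were tested, with a median of 0.035. Rpl22l1, the partner gene of Rpl22, differed by 0.12 ± 0.12 (SE), Rpl7l1 by 0.083, Rps27l, a p53 target, by 0.035 and Rpl3l by -0.051. The 13 tested genes with a TOP motif at the annotated start had a median of 0.040 and the 48 without it 0.045. Both medians were below 0 without control 8.4, at -0.0084 and -0.0023.

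Probes of the same gene differed by amounts similar in size to the fold changes of the members. For the 57 genes with several tested probes, the median span of fold changes over the probes of a gene was 0.060 log2. The median fold change of the 82 members was 0.047. The 103 tested probes other than the brightest had a median fold change of 0.046, with 83 above and 20 below 0. Of all 185 tested member probes, 0 had an unadjusted p under 0.05 in limma, against 816 of all 34095 tested probes. The widest span, 0.30, was in Rpl39. Its probes at chrX:34622696-34623990, which crosses an intron, and chrX:34622618-34622677 (mm9, minus strand) gave 0.067 and 0.054, while the third, at chrX:34622515-34622574 and with a level of -3.60, gave -0.23 ± 0.12 (SE), the smallest p of all member probes (0.088 in limma, unadjusted). A dimmer probe of Rpl23, not the one used, was spotted 10 times on each array, and the SD between its spots was 0.030 to 0.070 log2. Of the 82 probes used, 20 span more than 61 bases of the genome and so cross an intron.

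Ribosomal protein genes are known to have many processed copies in the genome, and no probe was matched to such copies here. Of 12 pairs of tested probes placed on overlapping bases of the same gene, 9 pairs, in 7 genes, differed in sequence over the overlap. The array annotation placed 11 of the 189 probes on a chromosome other than that of the gene in RefSeq. Among them were all probes of Rps27 and Rps29, so the values used for these 2 genes come from such probes. Whether signals of a gene and of near-identical copies were mixed was not tested. The 9 pairs that differed did so by 1 base (as in Rpl14) to 6 bases (in Rpl7a). The probes of Rplp0, a pair near the upper end, are given here as an example with the differing bases in capitals (mm9, plus strand, chr5:116013397-116013456 and chr5:116013404-116013463).
Rplp0 probe A: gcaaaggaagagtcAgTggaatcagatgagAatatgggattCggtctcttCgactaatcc
Rplp0 probe B: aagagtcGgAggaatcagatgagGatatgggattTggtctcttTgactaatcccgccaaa
Counted from 1 at the 5′ end of probe B, with the base of probe A written before the position and that of probe B after it, the differences are A8G, T10A, A24G, C35T and C44T. Over the 53 shared bases 5 differ, and the fold changes were 0.068 for probe A and 0.0077 for probe B, which was used.

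In 7 lists of genes that work with the ribosome, 0 genes passed the adjusted threshold and 0 had an unadjusted p under 0.05 in limma, against 1.94% of all genes tested. Groups did not overlap in 1 gene, of the mitochondrial ribosomal proteins, against 1.37% of all genes. Of 19 tested translation factors and other genes whose mRNAs carry a TOP motif, 16 were above 0, with a median of 0.033. Among them Eef1a1, the elongation factor that delivers tRNA, differed by -0.082 and Eif3e by 0.12. Of 30 initiation factors 26 were above 0 (median 0.046), and Eif3i, a subunit of eIF3, was 1.69 ± 0.13 in controls and 1.91 ± 0.17 in MS mice (SD, n = 4 each), with MS 5.3 inside the control range. Its difference of 0.22 ± 0.11 (SE) had an unadjusted p of 0.076 in limma, and Eif2s3x differed by -0.13, and by -0.061 without control 8.4.

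Ribosome biogenesis factors (45 tested) had a median of 0.018, with 27 above 0. Rrp12, a factor in export of pre-ribosomes, differed by 0.37 ± 0.18 (SE), and 0.19 without control 8.4, in which it read -2.24 against -1.62 to -1.51 in the other controls. Utp18 differed by -0.22. RNA polymerase I genes (16 tested), which make the rRNA, had a median of 0.053, with 0.11 for Polr1d (0.065 without control 8.4) and -0.10 for Polr1e. The mTORC1 pathway and other regulators of TOP mRNAs (23 tested) had a median of 0.032. There Rragc, a GTPase that signals amino acid supply to mTORC1, differed by 0.15 ± 0.075 (SE), and Mxi1, a partner of Max, by -0.56 ± 0.64 (SE). The Mxi1 probe was dim, at a level of -5.00, with values from -5.94 in MS 5.3 to -2.91 in control 8.2. Assembly chaperones and importins (15 tested) had a median of 0.045, with 0.19 for Ipo7 (0.084 without control 8.4) and -0.085 for Heatr3. Of 76 mitochondrial ribosomal protein genes, which make the separate ribosome of mitochondria, 57 were above 0 (median 0.028), with 0.19 for Mrpl28 and -0.12 for Mrpl53. Without control 8.4 the medians of the 7 lists lay between 0.0048 and 0.030, above 0, where that of the ribosomal protein genes was -0.0015.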

How the data were processed

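The authors labelled 200 ng of RNA with Cy3 and scanned it on Agilent arrays. Intensity per spot is as deposited from Feature Extraction (10.10.1.1), which subtracts background and does not normalise between arrays. Control spots (3671 of 62976) and outlier spots were left out, spots of a probe were averaged, and the 75th percentile of each array was subtracted on the log2 scale. A probe was tested when every array of either group read it as well above background (34095 of 55681). The deposited log2 table, which the authors normalised, served as an alternative. MS and control were compared with limma 3.58.1 (lmFit, eBayes, two-sided, no covariate) in R 4.3.3, adjusted by Benjamini-Hochberg over all tested probes at 0.05, after a test on simulated data. With 4 arrays a group, precision is limited by their number.

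The members and gene lists were chosen with earlier results of these data known. Named genes are the 4 higher and 4 lower members of each subunit with the smallest p, the stalk, 5S, tunnel and paralog groups, 7 fixed genes, the brightest and dimmest of each subunit, any member never above background, and the top gene of each direction in each list. A few genes that the rule takes are not reported here. Some further genes are named as list members or as examples chosen after their values were seen. Names were matched to RefSeq (GRCm38.p6), and probe positions are those of the files (mm9). The headers give design 28005. The methods name another number. Alternatives were background correction, scaling, filters, probe choice, slide row, the animal number as a random block, eBayes with trend and leaving out each animal. Figures used matplotlib in Python.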

Additional observations from a re-analysis of the deposited data

Results flagged for a closer look

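Of 78 groups of 4 values looked at, 1 had a lone value far from the other 3. Rps27l, a p53-induced paralog of Rps27, read 2.50, 2.50 and 2.48 in MS 5.3, 7.1 and 7.6 and 2.37 in MS 7.2, a gap that made up 0.854 of the range of the group, above the critical value of 0.83. Chance gives such a value in about 1 of 20 groups. The whole range of Rps27l over the 8 mice, 0.13, was the smallest of all 82 members.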

How the results depend on the processing

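Under 20 alternatives limma gave 0 ribosomal protein genes past the adjusted threshold. The lowest adjusted p of a member in limma was 0.480, with the animal number as a random block. In that setting p values were lower across the array. Of all genes, 9.62% had an unadjusted p under 0.05 in limma, against 1.94% in the main setting. The correlation estimated between animals of the same number was negative, at -0.22. An unadjusted p under 0.05 in limma was reached by 1 member, Rps21, and only within the second slide row (log2 fold change 0.54). Within that row 2.34% of all genes reached it. Members whose groups did not overlap numbered 4 with the array's median in place of the 75th percentile (Rpl32, Rpl36a and Rps27a among them, all higher in MS mice), or 4.88% against 1.45% of all genes, 16 (19.5% against 27.7% of all genes) and 25 (30.5% against 29.7%) within the first and second slide row, where 2 values stand against 2, and 0 to 1 when an animal was left out, the 1 being Rps27l without MS 7.2 (1.22% against 2.41%). The median log2 fold change of ribosomal protein genes ran from -0.0015 without control 8.4 to 0.081 without control 8.5 when an animal was left out, and was 0.0057 after quantile normalization and 0.0053 in the table of the authors, where 43 and 45 genes were above 0. It was -0.032 and 0.12 within the slide rows, where the large subunit alone gave -0.030 and 0.12. Large minus small subunit stayed between -0.0021 and 0.0094. No paired analysis was possible because the groups share no animal number. The 4 animals a group, of unstated litter, limit what can be detected, and cross-hybridisation to copies of these genes was not tested.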
